A study of Mus musculus with 32 samples.

Results

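In mice made by somatic nuclear transfer, in which the nucleus of a body cell replaces that of an egg, RNA of each clone was set against pooled RNA of conventionally bred mice on 2-colour arrays. The account given here concerns the wildtype clones and asks where their ratio to the pool differed between liver and spleen of the same animal. It rests on the 16 arrays, of 32 in all, that carry wildtype clone RNA in one channel and the wildtype pool in the other. These are 8 liver arrays and 8 spleen arrays of 4 male mice of strain 129/SvJ, aged 18 to 19 weeks, with 2 arrays per mouse and organ on which the dyes Cy5 and Cy3 were exchanged.

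The pool, labelled wt, came from male 129/SvJ mice of the same age. The labelling protocol speaks of 6 control animals in the pool and the labels list 4 mouse identifiers. The 16 remaining arrays hold liver and spleen of 4 clones labelled Dll1 cloned, set against a pool labelled Dll1 het, also of male 129/SvJ mice aged 18 to 19 weeks. All groups on the clone side share the nuclear transfer, and all pools lack it. The labels state neither the donor cells nor whether the 4 wildtype clones come from 1 donor animal, so the spread between mice may leave out variation between donors. Because each organ was set against 1 pool, any departure of that pool from other conventional mice enters the ratios of all 4 clones alike.

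The liver of an adult mouse is mostly made up of hepatocytes, which secrete plasma proteins, store and release fuel and clear ammonia and foreign compounds. The spleen filters blood, holds B cells, T cells and macrophages that present antigen on MHC molecules, and in mice keeps making red blood cells in adult life, a process that needs dividing precursor cells. A ratio from whole tissue moves with the number of cells of a type and with the RNA per cell, and in these bulk samples fewer cells of a type and less RNA per cell cannot be told apart.

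Each value is a log2 ratio, likely of clone over pool by the word order of the titles, so that 1 stands for a doubling and exchanging clone and pool would reverse all signs. The difference described throughout is the ratio in liver minus the ratio in spleen of the same mouse. A negative difference can therefore come from a low ratio in liver or a high ratio in spleen. Both ratios are given for the genes described at length, and for others only the difference, which does not separate these cases. Ratios hold no levels, so the labelled tissues could not be checked against how abundant their defining markers were. For the same reason, a ratio near 0 can stand for equal levels or for a signal too weak to show a difference. These cases could not be told apart. The median ratio of an array ranged from -0.067 to 0.042 among livers and from -0.051 to 0.079 among spleens. Missing spots numbered 74 to 114 on liver arrays, against 270 to 1180 on spleen arrays.

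Which way the arrays with the clone in Cy3 run is not stated, and this bears on every result. They were read as deposited, that is as already turned to clone over pool. On that reading an effect of the dye on a probe cancels in the mean of both arrays. If the values were not yet turned, the clone and pool difference would cancel instead and the mean would hold the dye effect. The mean ratios of the arrays with the clone in Cy5 and of those with it in Cy3 correlated at -0.700 across features in liver and at -0.384 in spleen. Within one orientation the arrays of different mice correlated positively, at 0.445 or more in liver and 0.155 or more in spleen. The readings cannot be told apart from the values used here.

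No gene passed limma's moderated test of a difference between liver and spleen of the wildtype clones. Of 16978 features, 0 passed a Benjamini-Hochberg adjusted p under 0.05 (0%), and the lowest adjusted p was 0.586. A feature is a named gene, with its probes averaged, or an unnamed probe, and 8981 of them were named genes. At an unadjusted p under 0.05 there were 1216 features (7.16%). Liver lay above spleen in 585 of these (3.45% of all features) and below it in 631 (3.72%). With the Cy3 arrays turned, 1328 features passed the adjusted threshold, 523 with liver above spleen and 805 with liver below. A fit of single arrays with the dye as a covariate gave 104, 42 above and 62 below. In that fit, which counts the 16 arrays and not the 4 mice, 23 of 69 genes named below passed, with Lyz2 lowest at an adjusted p of 0.000304. The correlation it estimated for the arrays of one mouse and organ was -0.233. All values that follow are as deposited where no other reading is named. As deposited, no gene named passed the adjusted threshold by the paired test over mice. With the Cy3 arrays turned, 8 of the genes named kept their sign and passed it.

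Spleen held most of the spread. The median SD between mice over features was 0.0869 in liver and 0.278 in spleen, and the ratio of spleen SD over liver SD had a median of 3.3. The mean ratio of spleen was further from 0 than that of liver in 76.1% of features. Liver lay above spleen in all 4 mice in 1343 of 16721 features measured in all of them (8.03%) and below it in all 4 in 1637 (9.79%). The 4 liver values lay wholly above the 4 spleen values in 645 features (3.86%) and wholly below in 769 (4.6%). The 4 mice had little in common over all features, since their differences correlated in pairs at only 0.0131 to 0.0679.

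The 21 gene lists are described by how many members lay on each side and by their median, beside a median of -0.009 over all features, where 48.2% lay above 0 and 51.8% below. Of all features 3.45% lay above and 3.72% below at an unadjusted p under 0.05. Of those measured in all mice 8.03% lay above and 9.79% below in 4 of 4 mice. Erythroid genes had the highest median, at 0.46, followed by cell cycle and DNA replication genes at 0.24. Enzymes of amino acid breakdown and the urea cycle and B cell genes had the lowest, at -0.22 each, next to hepatocyte plasma proteins at -0.21, MHC and antigen presentation at -0.19 and fat and connective tissue at -0.18. In all 7 of these lists the medians of the 4 mice kept the sign of the list's median. The same held for the ribosomal, acute phase, macrophage and chaperone lists, so this does not mark out the 7. With the Cy3 arrays turned the order was another: the T and NK cell and the platelet lists were lowest, at -0.35 each, exocrine pancreas was highest, at 0.09, and the amino acid list lay above 0, at 0.06.

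**Figure D1:**
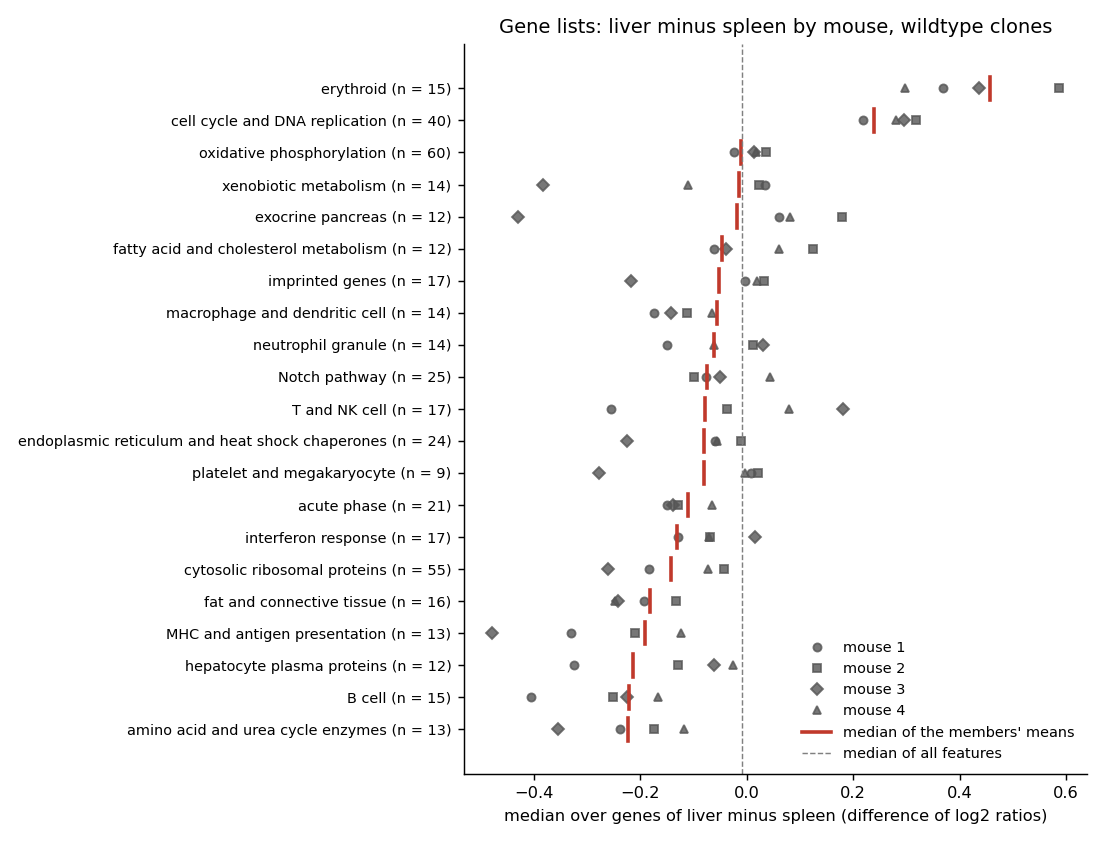
Median over the members of each gene list of the difference liver minus spleen in log2 ratio (horizontal axis), for each of the 4 wildtype clones (grey symbols), with the median of the members' means (red bar), the number of members tested and the median of all features (dashed line). The erythroid and cell cycle lists lie right of the dashed line in all 4 mice, and the B cell, MHC, plasma protein and amino acid lists lie left of it.

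Genes of DNA replication and cell division lay above in liver, with liver ratios near 0 and spleen ratios below it. Of 40 members tested, 32 had a difference above 0 and 8 below. At an unadjusted p under 0.05 there were 16 above and 0 below, against 3.45% and 3.72% of all features. Liver exceeded spleen in 4 of 4 mice in 26 of the 39 members measured in all mice, against 8.03% of all features. The list's liver medians in mice 1 to 4 were -0.04, 0.04, 0.02 and -0.01, against spleen medians of -0.28, -0.28, -0.27 and -0.28. The livers lay around 0 and the spleens agreed closely with one another. With the Cy3 arrays turned the list median was -0.02.

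Rrm2, the subunit of ribonucleotide reductase that limits the supply of DNA building blocks, had the smallest p of this list. It lay at 0.03, 0.06, 0.10 and 0.05 in the livers of mice 1 to 4, against -0.60, -0.90, -0.54 and -0.77 in their spleens. Every liver was slightly above the pool and every spleen well below it. The difference was 0.77 (SE 0.11, unadjusted p = 0.000781, adjusted p = 0.586 by limma), with both probes of the same sign. Transcription of replication genes is known to run through CCAAT boxes and E2F sites near the start of transcription, so the promoter of Rrm2 is shown. It spans chr12:24708004-24708303 of GRCm38.p6 on the plus strand, 250 bases before to 50 after the start as given by RefSeq, and the capitals mark a CCAAT box that begins 50 bases before the start:
Rrm2: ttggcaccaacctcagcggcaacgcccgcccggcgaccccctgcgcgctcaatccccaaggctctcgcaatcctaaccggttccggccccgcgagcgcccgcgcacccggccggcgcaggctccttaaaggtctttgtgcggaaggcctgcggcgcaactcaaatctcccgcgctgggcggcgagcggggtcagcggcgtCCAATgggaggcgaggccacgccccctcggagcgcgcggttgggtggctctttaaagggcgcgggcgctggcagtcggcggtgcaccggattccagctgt
CCAAT was searched on both strands and is held by 37.4% of 32851 promoter windows of the same length. The letters TTTCCCGC, a form of the E2F site, were not in this window and are held by 1.07% of all windows.

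Dek, a chromatin protein abundant in dividing cells, lay at -0.05, 0.06, 0.05 and 0.02 in the livers, against -0.57, -0.86, -0.87 and -1.05 in the spleens. Its difference was 0.86 (SE 0.13, unadjusted p = 0.000894), and the organs did not overlap. Pcna, the sliding clamp of DNA polymerase, was singled out after its values were seen. It lay at -0.03, -0.06, -0.02 and 0.12 in the livers, against -0.57, -0.98, -0.56 and -0.85 in the spleens. Its difference of 0.74 (SE 0.13, unadjusted p = 0.00178, adjusted p = 0.587) also came from the spleens, and its 2 probes gave 0.72 and 0.77.

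Erythroid genes showed the same arrangement. Of 15 members tested, 12 lay above 0 and 3 below. Members at an unadjusted p under 0.05 numbered 9 above and 0 below, against 3.45% and 3.72% of all features. In 4 of 4 mice 10 lay above, against 8.03% of all features. The liver medians of mice 1 to 4 were -0.05, -0.02, -0.03 and 0.05, against spleen medians of -0.44, -0.65, -0.38 and -0.37. With the Cy3 arrays turned the list median was -0.03.

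Car2, a carbonic anhydrase abundant in red cells, lay at -0.07, 0.05, -0.02 and -0.0007 in the livers, against -0.79, -1.45, -0.88 and -0.98 in the spleens. The liver ratios lay close to the pool and all spleen ratios far below it, most of all in mouse 2. The difference was 1.02 (SE 0.16, unadjusted p = 0.00115, adjusted p = 0.586), and its 3 probes gave 0.76 to 1.24. Klf1, the transcription factor that drives erythroid maturation, lay at -0.06, -0.26, -0.03 and 0.36 in the livers, against -1.11, -0.93, -0.54 and -0.42 in the spleens. Its difference of 0.75 (SE 0.13, unadjusted p = 0.00162) had no overlap between organs, although both organs spread widely.

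The 3 erythroid members on the other side were the haemoglobin alpha gene Hba-a1, the transcription factor Gata1 and the membrane skeleton gene Ank1. Hba-a1 lay at -0.75, -0.56, -0.53 and -0.41 in the livers, against -0.44, -0.71, -0.03 and -0.31 in the spleens. It was below the pool in both organs, and its difference was -0.19 (SE 0.14, unadjusted p = 0.232), or -0.43 with the arrays scaled to one spread, with 5 of 6 probes of that sign. The differences of Gata1 and Ank1 were -0.16 (SE 0.12) and -0.18 (SE 0.20), and for all 3 genes the organs overlapped.

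**Figure D2:**
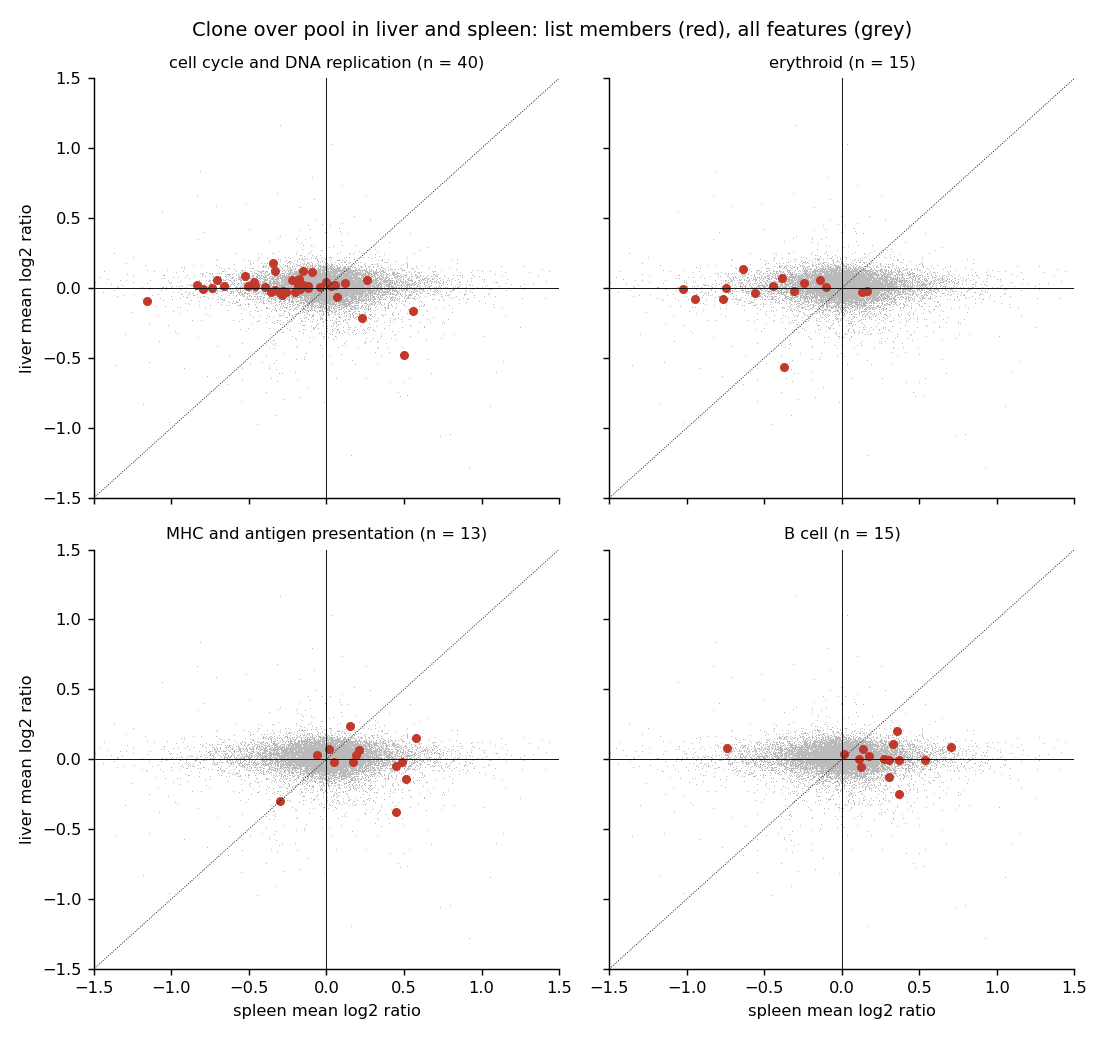
Mean log2 ratio in liver (vertical axis) against mean log2 ratio in spleen (horizontal axis) over the 4 wildtype clones, for all features (grey) and for the members of 4 lists (red), with the line of equal ratios dotted. Points beyond the axes are not drawn. Members of the cell cycle and erythroid lists lie mostly left of 0 along the spleen axis at liver ratios near 0, and members of the MHC and B cell lists lie mostly right of 0.

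Genes of antigen presentation lay below in liver. Of 13 members tested, 10 lay below 0 and 3 above. Members at an unadjusted p under 0.05 numbered 5 below and 0 above, against 3.72% and 3.45% of all features. In 4 of 4 mice 6 of 12 lay below, against 9.79% of all features. The liver medians of mice 1 to 4 were -0.06, -0.06, -0.01 and -0.02, against spleen medians of 0.41, 0.07, 0.37 and 0.07, so that mice 1 and 3 held the larger part. The list median was -0.07 with the Cy3 arrays turned, with 6 members above and 7 below.

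Cd74, the invariant chain that escorts MHC class II molecules, lay at -0.13, -0.12, -0.22 and -0.08 in the livers, against 0.52, 0.57, 0.48 and 0.49 in the spleens. Each liver was below the pool, each spleen above it, and neither organ spread by much. The difference was -0.65 (SE 0.10, unadjusted p = 0.000806, adjusted p = 0.586), and its 3 probes gave -1.05 to -0.45.

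B2m, beta-2-microglobulin, the light chain of MHC class I, lay at -0.45, -0.47, -0.33 and -0.28 in the livers, against 0.68, 0.42, 0.32 and 0.39 in the spleens. Liver and spleen here departed from the pool in opposite directions by similar amounts. The difference was -0.83 (SE 0.13, unadjusted p = 0.000996). Interferons are known to act on MHC class I genes through a response element in the promoter, so that of B2m is shown. It spans chr2:122147437-122147736 of GRCm38.p6 on the plus strand, again from RefSeq, and the capitals mark 2 copies of GAAA spaced by any 2 bases, which begin 139 bases before the start:
B2m: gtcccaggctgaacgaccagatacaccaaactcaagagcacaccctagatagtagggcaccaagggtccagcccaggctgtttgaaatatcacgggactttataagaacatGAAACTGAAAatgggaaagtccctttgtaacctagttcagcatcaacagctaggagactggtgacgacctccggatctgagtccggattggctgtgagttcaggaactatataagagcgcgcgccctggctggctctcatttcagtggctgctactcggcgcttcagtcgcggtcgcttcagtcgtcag
This motif, searched on both strands, is held by 3.44% of the 32851 windows. The window also holds CCAAT on the minus strand, 53 bases before the start.

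The other members of the antigen presentation list at an unadjusted p under 0.05 were Ctss, cathepsin S, which trims the invariant chain, Ifi30, a lysosomal thiol reductase, and H2-Eb1, an MHC class II chain. These were named after their values were seen. Ctss lay at 0.00, 0.01, -0.13 and 0.03 in the livers, against 0.45, 0.63, 0.50 and 0.36 in the spleens, a difference of -0.51 (SE 0.11). Ifi30 differed by -0.43 (SE 0.11), with all ratios above 0 in both organs, and by -0.21 with the arrays scaled to one spread. Both lay above 0 with the Cy3 arrays turned, Ctss at 0.21 and Ifi30 at 0.13. H2-Eb1 differed by -0.50 (SE 0.18), with spleens from 0.04 to 0.85 that overlapped the livers. The 3 members above 0 were H2-Oa at 0.09, H2-K1 at 0.05 and Tap1 at 0.005, each with overlapping organs.

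The interferon response list had 10 of 17 members below 0, with a median of -0.13, or -0.08 with the Cy3 arrays turned. Of 16 measured in all mice, 4 lay below and 1 above in 4 of 4 mice, against 9.79% and 8.03% of all features. At an unadjusted p under 0.05 there was 1 member above 0 and 0 below, against 3.45% and 3.72% of all features. That member was Usp18, a protease that restrains interferon signalling, with a difference of 0.45 (SE 0.13) and overlapping organs. Dhx58, a sensor of viral RNA, differed by -0.30 (SE 0.14).

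B cell genes lay below in liver in 13 of 15 members. At an unadjusted p under 0.05 there were 4 below and 1 above, against 3.72% and 3.45% of all features. In 4 of 4 mice 6 lay below and 1 above, against 9.79% and 8.03%. The liver medians of mice 1 to 4 were 0.002, 0.03, 0.04 and 0.01, against spleen medians of 0.44, 0.20, 0.29 and 0.16. The median was -0.18 with the Cy3 arrays turned, with 12 members below.

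Fcrla, an Fc receptor-like protein of B cells, lay at -0.22, -0.33, -0.31 and -0.14 in the livers, against 0.29, 0.26, 0.34 and 0.59 in the spleens. Its organs lay on opposite sides of the pool in every mouse, with a difference of -0.62 (SE 0.10, unadjusted p = 0.00127), and its 2 probes gave -0.95 and -0.29. Ms4a1, the B cell antigen CD20, lay at 0.04, 0.12, 0.11 and 0.08 in the livers, against 0.76, 0.59, 0.81 and 0.66 in the spleens. Both organs of Ms4a1 were above the pool, and the difference was -0.62 (SE 0.10, unadjusted p = 0.00155). The 2 remaining genes below 0 at an unadjusted p under 0.05 were Plac8, at -0.54 (SE 0.09), and Notch2, the Notch receptor needed for marginal zone B cells, at -0.44 (SE 0.11).

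Of the 2 B cell members above 0, Blk, a kinase of the B cell receptor, lay at 0.02 with overlapping organs. Cd24a, a surface glycoprotein that is also carried by immature B cells and red cell precursors, lay at 0.11, 0.03, 0.17 and 0.01 in the livers, against -0.56, -0.92, -0.52 and -0.96 in the spleens. All its spleens were far below all its livers, with a difference of 0.82 (SE 0.11, unadjusted p = 0.000594) and both probes of that sign. Its spleen ratios thus lay on the side of the erythroid genes and opposite to the rest of the B cell list.

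Among other blood cells, single genes stood out more than their lists, whose medians ran from -0.08 to -0.06. Lyz2, the lysozyme of macrophages and neutrophils, lay at 0.06, 0.01, 0.02 and -0.13 in the livers, against 0.79, 0.74, 0.79 and 0.70 in the spleens. The spleens differed little from each other and all lay far above the livers. The difference was -0.77 (SE 0.09, unadjusted p = 0.000357), and its probes gave -0.82 and -0.71. Lyz2 shares much of its sequence with its neighbour Lyz1, and the probes were not checked for cross-hybridisation. In the macrophage and dendritic cell list 10 of 14 members lay below 0 with a median of -0.06, or -0.12 with the Cy3 arrays turned. Of 12 measured in all mice, 4 lay below and 1 above in 4 of 4 mice, against 9.79% and 8.03% of all features. The medians of the 4 mice were all below 0. Members at an unadjusted p under 0.05 numbered 3 below and 0 above, against 3.72% and 3.45% of all features. These were Lyz2, the phagocyte oxidase subunit Cybb, at -0.47 (SE 0.14), and the scavenger receptor Cd163.

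Cd28, the costimulatory receptor of T cells, lay at -0.14, -0.15, -0.22 and -0.04 in the livers, against 0.59, 0.57, 0.56 and 0.67 in the spleens. Livers were below the pool and spleens above it in all mice. The difference was -0.74 (SE 0.09, unadjusted p = 0.000413). The T cell receptor chain gene Cd3g differed by -0.34 (SE 0.09), but the T and NK cell list divided evenly, 8 above and 9 below 0, with a median of -0.08. Fasl, the death ligand of cytotoxic T cells, had the smallest p of all genes measured in the 4 mice with one sign. It lay at -0.02, -0.36, -0.32 and -0.14 in the livers, against 1.03, 0.34, 0.65 and 0.72 in the spleens. Its difference of -0.90 (SE 0.11, unadjusted p = 0.000334, adjusted p = 0.586) was shared by both probes, which gave -1.26 and -0.74, the first measured in 2 mice and the second in 4. The neutrophil granule list had 10 of 14 members below 0 (median -0.06), with S100a8 at 0.28 (SE 0.11) and Mpo at -0.19 (SE 0.10). The platelet list had 7 of 9 below 0 (median -0.08) and 0 at an unadjusted p under 0.05, against 7.16% of all features. Clec1b differed by -0.49 (SE 0.22). The platelet chemokine gene Ppbp differed by -0.70 (SE 0.57), and its spleen ratio of 3.42 in mouse 4 came from 1 array.

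**Figure D3:**
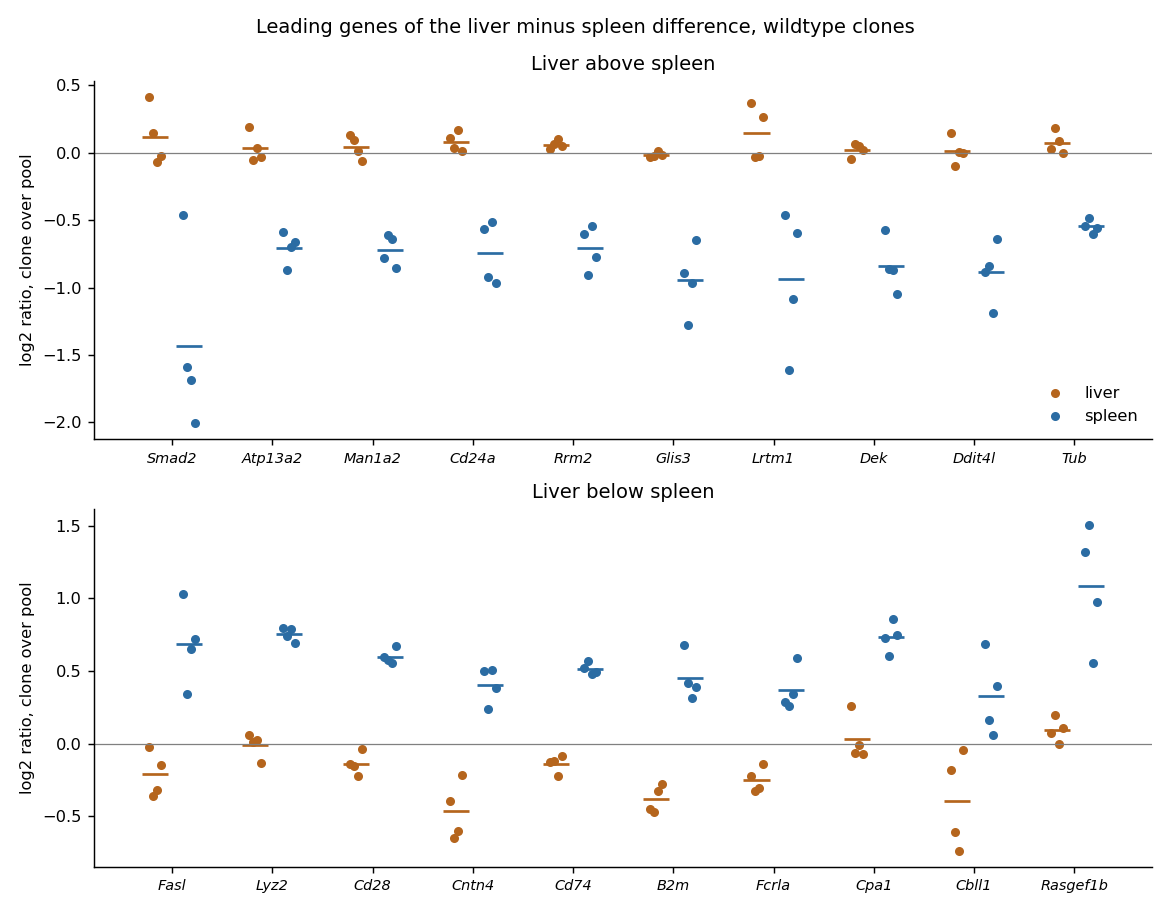
Log2 ratio, likely of clone over pool, in liver (brown, left) and spleen (blue, right) of each of the 4 wildtype clones for the 10 genes of each direction with the smallest p, with means as bars. The genes were ranked on these values, so the gap between the organs is a description. Livers of the upper row stay close to 0 while the spleens lie below it, and in the lower row the spleens lie above 0.

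Most plasma protein and amino acid enzyme genes lay below in liver relative to spleen, and here the liver ratios themselves were low. Of 12 plasma protein genes, 10 lay below 0. Of these, 1 was at an unadjusted p under 0.05 and 2 lay below in 4 of 4 mice. All features gave 3.72% and 9.79%, and counts this small do not set the list apart. The liver medians were -0.32, -0.16, -0.25 and -0.06 in mice 1 to 4, against spleen medians of 0.06, 0.01, -0.17 and 0.07. Turning the Cy3 arrays gave a median of -0.10, with 5 members above and 7 below. Alb, serum albumin, lay at -0.62, -0.26, -0.34 and -0.09 in the livers, against 0.10, 0.002, 0.60 and 0.23 in the spleens. Its livers were all below the pool and its spleens at or above it, with a difference of -0.56 (SE 0.15, unadjusted p = 0.0137), against 0.61 with the Cy3 arrays turned. Apoa1, the main protein of HDL, differed by -0.26 (SE 0.13), with overlapping organs.

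Of 13 enzymes of amino acid breakdown and the urea cycle, 11 lay below 0. Of these, 3 were at an unadjusted p under 0.05 and 6 lay below in 4 of 4 mice. All features gave 3.72% and 9.79%. Turned Cy3 arrays put 8 above and 5 below, with a median of 0.06. The 3 were Uroc1, which breaks down a product of histidine, at -0.56 (SE 0.17), Gnmt, a glycine methyltransferase, at -0.32 (SE 0.11), and Mat1a. Uroc1 had narrow liver ratios from -0.27 to -0.23 and wide spleen ratios from -0.07 to 0.86. In the acute phase list 14 of 21 lay below 0 (median -0.11, and -0.10 with the Cy3 arrays turned). At an unadjusted p under 0.05 there were 3 below and 1 above, against 3.72% and 3.45% of all features. Those below were Il6ra, Fgl1 and Fga, and the one above was Itih3. Il6ra, the receptor through which interleukin-6 drives acute phase genes, lay at -0.52, -0.39, -0.44 and -0.26 in the livers, against 0.15, 0.02, 0.16 and 0.12 in the spleens. Every liver was below the pool and every spleen slightly above it, a difference of -0.52 (SE 0.11, unadjusted p = 0.00403). The Il6ra difference was -0.97 in arrays with the clone in Cy5 and -0.07 in those with it in Cy3. Fgl1, a fibrinogen-like protein secreted by hepatocytes, differed by -0.54 (SE 0.13).

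Xenobiotic and lipid metabolism showed no common side. Xenobiotic genes divided 7 above and 7 below. At an unadjusted p under 0.05 there were 1 above and 2 below, against 3.45% and 3.72% of all features. The one above was Sult1a1, a sulfotransferase of the liver, singled out after its values were seen. It was measured in mice 1, 3 and 4, at 2.44, -0.16 and -0.19 in the livers, against -1.88, -0.93 and -3.84 in the spleens, each spleen from 1 array. Its difference of 2.91 (SE 0.75, unadjusted p = 0.016, adjusted p = 0.668) was above 0 in 3 of 3 mice, and -1.60 with the Cy3 arrays turned. Below 0 lay the glutathione transferases Gstm1 at -0.41 (SE 0.16) and Gstp1 at -0.35 (SE 0.10). Fatty acid and cholesterol genes divided 5 above and 7 below, with the stearoyl-CoA desaturase Scd1 at -0.47 (SE 0.11). Hadha, an enzyme of mitochondrial fatty acid oxidation, differed by 0.70 (SE 0.34), with spleens of -0.09, -0.39, 0.02 and -1.97, so that mouse 4, with a value on its Cy3 array only, carried most of it. Without mouse 4 it was 0.29. Oxidative phosphorylation genes divided 29 above and 31 below with a median of -0.01, and Cyc1 and Sdhd lay at -0.35 (SE 0.15) and -0.37 (SE 0.14).

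Cytosolic ribosomal protein genes lay below 0 in 49 of 55 members by small amounts, with a median of -0.14. At an unadjusted p under 0.05 there were 6 below and 0 above, against 3.72% and 3.45% of all features. Of the members 21 lay below and 1 above in 4 of 4 mice, against 9.79% and 8.03%. Their median was -0.11 with the Cy3 arrays turned, with 36 below. Rps27 lay at -0.18, -0.07, -0.01 and 0.03 in the livers, against 0.36, 0.23, 0.42 and 0.40 in the spleens, and differed by -0.41 (SE 0.10). The livers were near the pool and the spleens above it. Rpl39 differed by -0.37 (SE 0.11). Many processed copies of ribosomal protein genes exist in the mouse genome, and which copy a probe binds was not checked. Of 24 chaperone genes 17 lay below 0, with a median of -0.08. Hsp90b1, a chaperone of the endoplasmic reticulum, differed by -0.75 (SE 0.20), and Hspd1, a mitochondrial one, by 0.36 (SE 0.11).

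Genes of tissues that can be carried along when a spleen is taken out were also listed. Fat and connective tissue genes lay below 0 in 15 of 16 members (median -0.18). Of these, 4 were at an unadjusted p under 0.05 and 7 lay below in 4 of 4 mice. All features gave 3.72% and 9.79%. The liver medians were -0.06, -0.02, -0.08 and 0.001 in mice 1 to 4, against spleen medians of 0.15, 0.11, 0.12 and 0.25, all of them above 0. This list's median was -0.12 with the Cy3 arrays turned, with 10 members below. Adipoq, the fat cell hormone adiponectin, lay at -0.08, 0.22, -0.04 and 0.01 in the livers, against 0.75, 2.88, 0.75 and 0.94 in the spleens. The spleen of mouse 2 stood far above the other 3 and rested on its Cy3 array alone, since the Cy5 array had no value. The difference was -1.30 (SE 0.35, unadjusted p = 0.013), against -0.85 without mouse 2 and 0.68 with the Cy3 arrays turned.

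The other 3 were Car3, a carbonic anhydrase of fat and liver, at -0.38 (SE 0.14), Sparc, a matrix protein, at -0.32 (SE 0.12), and Dcn, the matrix proteoglycan decorin, at -0.70 (SE 0.26), or -0.40 without mouse 3. The difference of Car3 came from low liver ratios, with a liver mean of -0.38 and a spleen mean of -0.0006. Sparc had means of -0.02 in liver and 0.30 in spleen, and Dcn of -0.14 and 0.56. The exception above 0 was Fabp4, a fatty acid carrier of fat cells, at 0.08 with overlapping organs. Exocrine pancreas genes divided 6 above and 6 below, with spleen medians of -0.02, -0.15, 0.42 and -0.04, so that mouse 3 stood apart. Cpa1, a pancreatic carboxypeptidase, lay at 0.26, -0.06, -0.01 and -0.07 in the livers, against 0.73, 0.60, 0.86 and 0.75 in the spleens, alike in all 4 mice. Its difference was -0.71 (SE 0.11, unadjusted p = 0.00135), or -0.47 with the arrays scaled to one spread, while Sycn, a protein of pancreatic zymogen granules, differed by 0.30 (SE 0.16). The part of carried-along tissue in these differences, or in those of the blood cell lists, was not tested.

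The remaining genes ranked first by p belong to no list. Smad2, a signal carrier of TGF-beta and activin receptors, lay at 0.41, 0.15, -0.07 and -0.02 in the livers, against -0.46, -1.59, -1.69 and -2.004 in the spleens. Mouse 1 was higher than the others in both organs. The difference was 1.55 (SE 0.20, unadjusted p = 0.000482), the largest of the 20 genes ranked first, but its probes gave 0.49 and 2.61 and had 6 and 5 spleen arrays of 8. With values of size over 9 kept it was 0.38 (unadjusted p = 0.688), and with both dye-swapped arrays required Smad2 was not tested. Man1a2, a mannosidase that trims glycans in the Golgi, differed by 0.77 (SE 0.10), and Atp13a2, a lysosomal transporter, by 0.74 (SE 0.10).

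Glis3, a transcription factor, differed by 0.93 (SE 0.13), with livers within 0.03 of the pool and spleens from -1.28 to -0.65, of which those of mice 3 and 4 had 1 array each. With values of size over 9 kept its difference was 2.92 (unadjusted p = 0.111). Lrtm1, with 1 array for the spleen of mouse 3, differed by 1.08 (SE 0.16). Ddit4l, a relative of a stress-induced inhibitor of mTOR signalling, differed by 0.90 (SE 0.14), and Tub, named for the tubby obesity mutant, by 0.62 (SE 0.10). On the other side, Cntn4, an adhesion protein of neurons, lay at -0.40, -0.65, -0.60 and -0.21 in the livers, against 0.50, 0.24, 0.51 and 0.38 in the spleens. Its organs departed from the pool in opposite directions, a difference of -0.87 (SE 0.12). Cbll1, an E3 ubiquitin ligase, differed by -0.72 (SE 0.12), and Rasgef1b, a Ras exchange factor, by -0.99 (SE 0.16) with spleens from 0.56 to 1.51, the highest from 1 array. With values of size over 9 kept Rasgef1b differed by -2.86 (unadjusted p = 0.13).

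The Notch pathway was listed because the companion cohort is defined by Dll1, a ligand of Notch receptors. Of 25 members 11 lay above and 14 below 0 (median -0.08). At an unadjusted p under 0.05 there were 2 below and 1 above, against 3.72% and 3.45% of all features. In 4 of 4 mice 5 lay below and 1 above, against 9.79% and 8.03%. Dll1 lay at 0.09, -0.26, -0.55 and -0.89 in the livers, against 0.67, -0.85, 0.41 and 0.77 in the spleens. The spleen of mouse 2 went against the other 3, the organs overlapped, and the difference was -0.65 (SE 0.37, unadjusted p = 0.134, adjusted p = 0.71), ranging from -1.07 without mouse 2 to -0.31 without mouse 4. Rbpj, the DNA-binding partner of activated Notch, differed by 0.33 (SE 0.12), with overlapping organs, against -0.44 for the receptor Notch2.

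Imprinted genes, which are expressed from 1 parental allele and are often examined in clones, divided 8 above and 9 below 0 with a median of -0.05. At an unadjusted p under 0.05 there was 1, Dcn, which lay below 0, against 3.72% of all features. Gnas, which encodes a G protein subunit, differed by -0.54 (SE 0.24), with spleens of 1.10, -0.03, 0.09 and 0.75, so that mice 1 and 4 carried it, and the difference was -0.29 without mouse 1.

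Read by dye, the difference of several leading genes was alike on both sets of arrays. In the arrays with the clone in Cy5 the mean difference was -0.72 for Lyz2, -0.73 for Cd74, -0.92 for B2m and -0.62 for Fcrla. In those with the clone in Cy3 it was -0.81, -0.58, -0.74 and -0.62 in the same order, and each of these differences had that sign in 4 of 4 mice in both orientations. Pcna lay at 0.73 in Cy5 and 0.75 in Cy3. Rrm2 lay at 0.42 and 1.11, Dek at 0.32 and 1.40, and Car2 at 0.54 and 1.497.

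Other genes rested mostly on one orientation or had opposite signs in Cy5 and Cy3. Atp13a2 lay at 1.52 in Cy5 and -0.04 in Cy3, Ms4a1 at -1.42 and 0.19, Scd1 at -1.08 and 0.15, and Rpl39 at -0.99 and 0.25. For Alb the values were 0.05 in Cy5 and -1.18 in Cy3. Among others, Il6ra lay at -0.97 in Cy5 and -0.07 in Cy3, Hsp90b1 at -1.37 and -0.14, and Dcn at -1.23 and -0.16. Car3 lay at -0.68 and -0.08, H2-Eb1 at -1.16 and 0.16, and Gnmt at -0.81 and 0.17. Usp18 lay at -0.20 and 1.10, Rbpj at -0.15 and 0.81, Gata1 at -1.14 and 0.82, and H2-K1 at -0.64 and 0.75. The differences of Gata1 (-0.16) and H2-K1 (0.05) thus averaged large values of opposite sign. Over all features the mean differences of both orientations correlated at -0.435. The leading genes were ranked on the mean of both orientations, which favours genes of one sign in both.

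**Figure D4:**
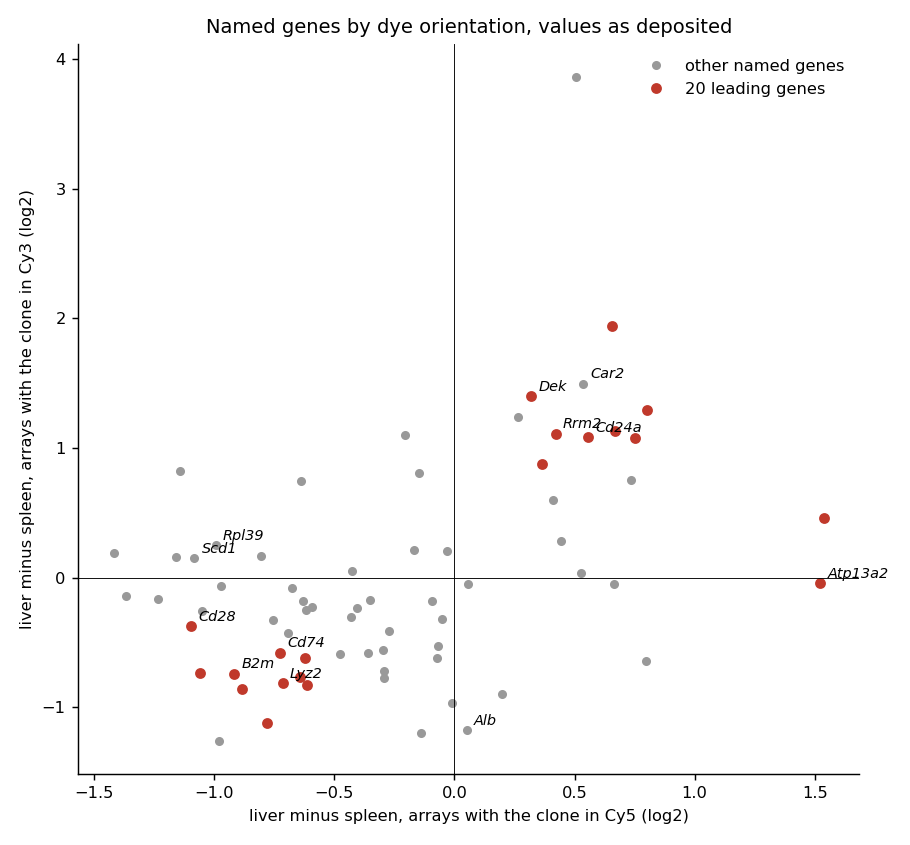
Mean difference liver minus spleen in log2 ratio as deposited, in arrays with the clone in Cy5 (horizontal axis) and in Cy3 (vertical axis), for the 20 leading genes (red) and the other named genes (grey). The leading genes lie in the quadrants of equal sign, apart from Atp13a2, which is at -0.04 in Cy3, whereas Scd1, Rpl39 and Alb have opposite signs.

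Whether the organs of the wildtype clones differed in another way than those of the Dll1 clones was asked by the difference between both cohorts, which share neither mice nor pools. By limma 0 of 16909 features passed (0%), the lowest adjusted p was 0.913, and 807 had an unadjusted p under 0.05 (4.77%). Over these features the differences of the cohorts correlated at 0.092 and 55.3% had the same sign.

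The erythroid median was 0.46 in wildtype clones and 0.46 in Dll1 clones, and the cell cycle median 0.24 in wildtype and 0.16 in Dll1 clones. The MHC median was -0.19 in wildtype and -0.26 in Dll1 clones, the ribosomal median -0.14 and -0.19, and the B cell median -0.22 and -0.10 in the same order. The acute phase median was -0.11 in wildtype and 0.02 in Dll1 clones. These differences between the cohorts' list medians were not tested.

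Cntn4 lay at -0.87 ± 0.21 in wildtype clones and -0.95 ± 0.62 in Dll1 clones, and Cd74 at -0.65 ± 0.06 and -0.51 ± 0.26 in the same order (SD, n = 4 mice each). Cd24a lay at 0.82 ± 0.17 in wildtype and 0.62 ± 0.75 in Dll1 clones. The gap was wider for Alb, at -0.56 ± 0.33 in wildtype and 0.16 ± 0.09 in Dll1 clones, a difference between the cohorts of -0.73 by limma (unadjusted p = 0.00742, adjusted p = 0.913). For Fasl the values were -0.90 ± 0.15 and -0.10 ± 0.17 (unadjusted p = 0.00187), and for Lrtm1 1.08 ± 0.35 and -0.16 ± 0.39 (unadjusted p = 0.00124). Hba-a1 lay at -0.19 ± 0.28 in wildtype and 0.74 ± 0.85 in Dll1 clones. Apart from Hba-a1, which was added after values were seen, these genes were picked by their p in the wildtype clones. Naming genes in the wildtype clones favours a gap to the Dll1 clones, and the examples lie at the extremes of that gap's own p. The unadjusted p-values between cohorts are therefore descriptive. None of these genes passed at an adjusted p of 0.913 or above.

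**Figure D5:**
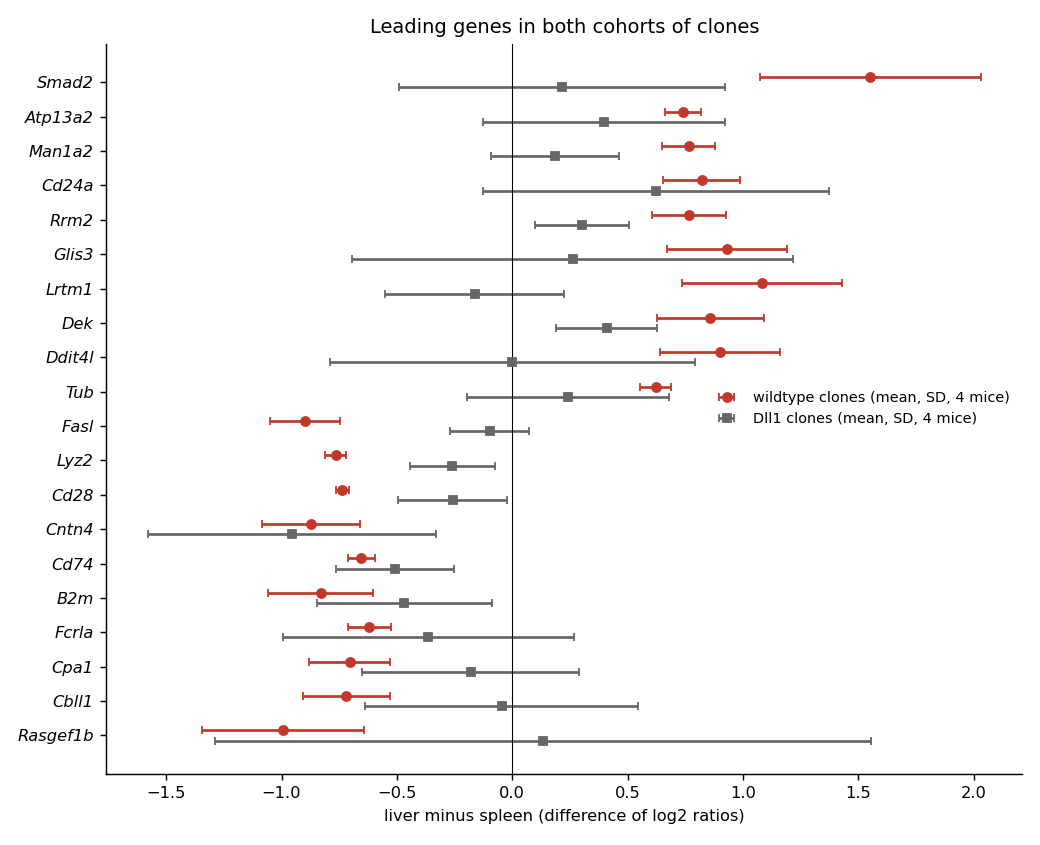
Difference liver minus spleen in log2 ratio (horizontal axis) of the 20 leading genes in wildtype clones (red, upper) and Dll1 clones (grey, lower), as mean and SD of 4 mice each. The genes were chosen in the wildtype clones, which favours a gap between the cohorts. Cntn4, Cd74 and Cd24a lie close together in both cohorts, while Fasl and Lrtm1 lie near 0 in the Dll1 clones, at -0.10 and -0.16.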

How the data were processed

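The values deposited by the authors are log2 ratios, 1 for each probe on each array. The sources used here do not give scanner settings, background correction or normalization. RNA was isolated with RNeasy kits and dye-coupled after reverse transcription, per the labels' protocols. Values of size over 9 (138 in liver, 432 in spleen) were set to missing, the largest left being 7.332. Both arrays of a mouse and organ were averaged as deposited, without centring. Row n was named by probe n minus 11. Mean correlations of same-gene probes over the mouse-and-organ means of both cohorts were 0.0268 so and 0.0022 unshifted. Both are near 0, so the naming has only weak support from these values. Of 20794 rows 12760 were named, with GRCm38.p6 symbols. The mouse identifiers pair the organs, yet deviations of liver and spleen of a mouse correlated at only 0.00516 to 0.0769. Per-mouse differences, in at least 3 mice, were tested against 0 with limma 3.58.1 in R 4.3.3, with Benjamini-Hochberg adjustment, checked on simulated data. No duplicated arrays were found. Separate animals make p-values measure variation between mice, but 4 mice limit precision.

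Named were the 10 genes of each direction with the smallest p and one sign in 4 mice, 2 per list, and Dll1, 54 in all, and 16 added after values were seen. Members and lists were chosen with earlier results of these data known. Alternatives covered direction, centring, scaling, large values, averaging, naming, pairing, spread and single mice. Probes with no symbol or more than 1 symbol in the platform annotation were left unnamed, which left 12771 probes with 1 symbol.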

Additional observations from a re-analysis of the deposited data

Results flagged for a closer look

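Of 270 sets of 4 mice (gene or list, by organ or difference), 8 held a mouse whose gap to the nearest other was too large a share of the range by Dixon's critical value, where chance gives about 1 in 20 sets. The spleen of mouse 2 lay at 2.88 for Adipoq, against 0.75 to 0.94 in the other mice, and its difference between organs at -2.65, against -0.92 to -0.80. That spleen value came from the Cy3 array alone. Mouse 3 lay apart for Dhx58 in liver, at -0.0185 against -0.15 to -0.14, for Ctss in liver, at -0.13 against 0 to 0.03, and for Blk in spleen, at 0.18 against -0.05 to -0.03. Gata1 lay at 0.18 in the liver of mouse 4, against -0.12 to -0.07. The median difference of the platelet list was -0.28 in mouse 3, against -0.003 to 0.02, and that of the imprinted list -0.22 in mouse 3, against -0.004 to 0.03.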

How the results depend on the processing

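The count of features past the adjusted threshold was 0 in 14 of 16 alternatives. It was 1328 with the Cy3 arrays turned (523 above, 805 below) and 104 in single arrays with a dye covariate, random block and no replicate block (42 above, 62 below). Without the replicate block that pairs the organs of a mouse it was 0, with a lowest adjusted p of 0.0656 and 1602 features at an unadjusted p under 0.05. That unadjusted count, 1216, became 5289 with the Cy3 arrays turned, 724 with the Dll1 clones in the fit, and 958 to 1073 leaving out single mice. The cohort difference kept 0 throughout; its 807 features at an unadjusted p under 0.05 became 3059 with the Cy3 arrays turned (lowest adjusted p 0.105) and 591 to 1115 leaving out single mice.

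With the Cy3 arrays turned, 8 named genes kept their sign and passed the adjusted threshold, 26 kept it without passing, and 36 reversed. Differences now below 0 were Sult1a1 -1.60, Smad2 -0.86, Cd24a -0.26, Rrm2 -0.34, Glis3 -0.0745, Lrtm1 -0.49, Dek -0.54, Ddit4l -0.23, Tub -0.26, Hadha -0.39, Car2 -0.48, Klf1 -0.49, Usp18 -0.65, Rbpj -0.48, Pcna -0.0102, H2-Oa -0.12, H2-K1 -0.69 and Blk -0.19. Those now above 0 were Lyz2 0.0493, Cpa1 0.0623, Cbll1 0.11, Rasgef1b 0.50, Alb 0.61, Fgl1 0.24, Gstp1 0.27, Cyc1 0.55, Cd3g 0.0718, Cybb 0.11, Mpo 0.13, Clec1b 0.48, Dhx58 0.23, Gnas 0.0577, Adipoq 0.68, Ank1 0.12, Ctss 0.21 and Ifi30 0.13. The cause was not tested.

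Leaving out mice in turn moved the difference across 0 for Ppbp (-1.13 to 0.00633, above 0 without mouse 4), Ank1 (-0.36 to 0.0333, above 0 without mouse 3), H2-Oa (-0.00733 to 0.20, below 0 without mouse 1), H2-K1 (-0.053 to 0.15, below 0 without mouse 2), Blk (-0.034 to 0.10, below 0 without mouse 2), Fabp4 (-0.39 to 0.37, below 0 without mouse 4) and Tap1 (-0.0942 to 0.18, above 0 without mouse 3 only). Tap1 also reversed to -0.10 with scaled arrays. Without mouse 3 the differences were -0.25 for Gstm1 and Sdhd and -0.30 for Clec1b, and without mouse 4 they were -0.17 for Apoa1 and -0.19 for Dhx58. Named by row number unshifted, the erythroid median was 0.07 and the cell cycle median 0.02.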
